A study of Mus musculus with 36 samples.

Results

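Dendritic cells grown from mouse bone marrow were exposed to the STING ligand 3',3'-cGAMP (cG) or left without ligand, and the loci that opened and closed were read from the 2 cG and the 2 control libraries. These 4 libraries are part of a series of 36 in 18 groups of 2, all measured by ATAC-seq, which maps accessible chromatin by the places where a transposase can enter it. The cells came from female C57BL/6J mice aged 6 to 8 weeks, were grown in culture with the cytokine GM-CSF, and were exposed for 6 h, after which nuclei of 50000 cells were taken for each library. All groups share this strain, sex and culture, and the labels name no transgene or deletion. The labels do not say whether replicates came from separate mice or cultures, so every p-value measures only the spread between these libraries. Of 119750 peaks outside the mitochondrial genome, 119464 passed the filter on low counts, and every one of these was tested. To see cG act on another background, cells given depleted zymosan with and without cG (ZcG and Z) and cells given PAM with and without cG (PcG and P) were used. Sendai virus (SeV, called S) and LPS (L) served for direct comparison with cG. The doses of the ligands are not given in the sources used here.

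cGAMP is a cyclic dinucleotide that binds STING, a receptor in the membrane of the endoplasmic reticulum. In the cell's own pathway the DNA sensor cGAS makes such a messenger on contact with DNA in the cytosol. Bound STING recruits the kinase TBK1, which phosphorylates the transcription factor IRF3, and NF-kappaB is activated as well. IRF3 drives type I interferon genes, and secreted interferon then acts through its receptor and factors that include STAT2 and IRF9 on the interferon-stimulated genes.

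Promoters of opened genes that hold the binding letters of these factors are shown first, since several results below concern them. The first group holds the IRF repeat, searched as GAAANNGAA on both strands. Each line gives 150 bases ending at the start site, 5′ to 3′ on the gene's own strand, from RefSeq's promoter table for GRCm38.p6, with the matches in capitals. Isg15 (chr4:156200819-156200968, minus strand) is a ubiquitin-like antiviral protein. Ifit1 (chr19:34640739-34640888, plus strand) binds viral RNA. Oas3 (chr5:120777660-120777809, minus strand) makes the messenger that activates RNase L. Socs1 (chr16:10785537-10785686, minus strand) inhibits cytokine receptor signalling. Isg15 and Ifit1 each had 3 matches, and Oas3 and Socs1 each had 2. Matches that overlap form 1 run of capitals.
Isg15: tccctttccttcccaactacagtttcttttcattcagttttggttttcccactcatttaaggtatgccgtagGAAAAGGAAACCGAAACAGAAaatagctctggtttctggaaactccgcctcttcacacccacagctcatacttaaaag
Ifit1: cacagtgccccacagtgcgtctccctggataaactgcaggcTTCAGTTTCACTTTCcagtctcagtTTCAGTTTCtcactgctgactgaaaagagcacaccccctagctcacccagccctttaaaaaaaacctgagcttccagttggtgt
Oas3: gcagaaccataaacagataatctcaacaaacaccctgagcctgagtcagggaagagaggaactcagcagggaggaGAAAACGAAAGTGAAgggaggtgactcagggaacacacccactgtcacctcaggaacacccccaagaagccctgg
Socs1: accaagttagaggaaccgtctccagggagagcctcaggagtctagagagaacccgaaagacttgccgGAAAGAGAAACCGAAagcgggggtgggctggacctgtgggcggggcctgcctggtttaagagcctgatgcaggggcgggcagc

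The second group holds the kappaB letters, searched as GGANTTTCC and GGGANTTCC on both strands, and each has 1 match in capitals. Cxcl10 (chr5:92348890-92349039, minus strand) attracts T cells. Acod1 (chr14:103046862-103047011, plus strand) makes itaconate. Il6 (chr5:30012964-30013113, plus strand) and Ifnb1 (chr4:88522795-88522944, minus strand) encode an inflammatory cytokine and interferon beta. The match lies 43 bases before the start site in Il6 and 115 bases before it in Ifnb1.
Cxcl10: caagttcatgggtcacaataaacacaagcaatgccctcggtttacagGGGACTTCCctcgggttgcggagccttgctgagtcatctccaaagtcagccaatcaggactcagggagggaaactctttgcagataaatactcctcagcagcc
Acod1: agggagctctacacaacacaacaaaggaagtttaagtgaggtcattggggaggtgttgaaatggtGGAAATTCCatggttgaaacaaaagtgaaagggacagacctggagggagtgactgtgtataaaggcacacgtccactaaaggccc
Il6: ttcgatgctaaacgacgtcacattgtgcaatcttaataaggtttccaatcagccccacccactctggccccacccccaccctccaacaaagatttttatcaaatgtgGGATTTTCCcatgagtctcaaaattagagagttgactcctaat
Ifnb1: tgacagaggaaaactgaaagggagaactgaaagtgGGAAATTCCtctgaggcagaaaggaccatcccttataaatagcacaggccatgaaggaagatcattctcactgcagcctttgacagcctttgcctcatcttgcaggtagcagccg

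The libraries held 11718168 and 13189418 counts outside the mitochondrial peak for cG, and 11213646 and 11965163 for control. Across tested peaks log2 values correlated at 0.940 between the cG libraries, at 0.925 between the control libraries and at 0.850 to 0.863 between groups, as a description over peaks. Replicates differed by more than counting noise, with a chi-square per degree of freedom of 2.83 for cG and 2.39 for control. The mitochondrial peak took 61.9% and 60.1% of all counts in control against 45.0% and 47.3% in cG, so this share and the ligand cannot be told apart in cG against control. The share was close in ZcG (62.8% and 63.1%) and Z (62.4% and 60.9%), and in S it was 47.1% and 48.7%. In PcG it was 44.5% and 45.7% against 50.5% and 48.5% in P, lower with cG as in cG against control. ATAC-seq of a bulk culture cannot tell fewer cells of a type from less open chromatin per cell. Among 8 dendritic markers 1 was called higher and 1 lower, near the 11.6% of all tested peaks in each direction, and neither call held with each library left out. Over all 75 tested peaks of these loci 11 opened and 1 closed (median 0.24, against -0.02 for the 8). Their summed accessibility was 174.1 and 172.0 CPM (counts scaled to library size by TMM, outside the mitochondrial peak) in cG and 158.1 and 165.3 in control. Itgax, which encodes CD11c, stood at 15.7 and 13.9 CPM in cG and 13.7 and 16.5 in control, while the dendritic factor Zbtb46 stood at or below 1.64 CPM in all 4 libraries.

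After cG 13916 peaks opened and 13886 closed at an adjusted p under 0.05 (edgeR's quasi-likelihood test, Benjamini-Hochberg over all tested peaks), which is 11.6% of tested peaks in each direction and 23.3% together. The median opened peak gained 1.34 on the log2 scale, and 9340 opened peaks (67.1%) changed more than 2-fold. The median closed peak changed by -1.18, and 8513 (61.3%) changed more than 2-fold. Changes over 8-fold were found for 1168 opened and 254 closed peaks. The split between opened and closed depends on the scaling: with libraries scaled to their total counts outside the mitochondrial peak 27382 peaks opened and 6380 closed, and the median of all peaks moved from 0.01 to 0.34. With the 17 peaks over 1000 CPM left out of such totals the numbers were 15765 and 12244. Without control replicate 1 the total called fell to 17405, and leaving out another library gave 18572 to 21205.

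Opened and closed peaks were both wider and stronger than the rest. The median width was 625 bp for opened, 560 bp for closed and 416 bp for other peaks. Of peaks up to 300 bp 3.77% opened, against 27.3% of those over 2000 and up to 5000 bp and 56.5% of the 46 peaks over 5000 bp. In the weakest decile of peaks by mean CPM 5.98% opened and 1.03% closed, and in the strongest decile 16.7% opened and 24.4% closed. The strongest peaks have the counts to call small changes, so these shares also reflect depth. Losses from weak peaks are harder to call than gains of the same fold, and losses were recovered less often than gains in simulated data. Those data held no changes over 8-fold. Their changed peaks had an expected count of at least 10 in a library of mean size before the change. How far this limit enters the counts over 8-fold and the weakest decile was not tested.

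Among called peaks, changes at start sites were smaller than elsewhere. Of the 15936 peaks within 1 kb of a start site of a protein-coding gene, 1670 opened (10.5%) and 2118 closed (13.3%). The median change was 0.63 for opened and -0.53 for closed start-site peaks and 1.44 and -1.25 in gene bodies, and closed peaks between genes had -1.31. A peak with fewer counts needs a larger change to be called, so these medians also depend on depth. Whether changes differ by position at equal depth was not tested. By chromosome, 15.5% of peaks on chromosome 11 opened and 5.83% closed, while 6.19% on the X chromosome opened and 15.7% closed. Other chromosomes lay between, such as chromosome 19 (13.7% opened, 7.18% closed) and chromosome 18 (9.39% opened, 15.49% closed). Chromosome 11 carries Ccl5, Rnf213 and the Irgm genes, among others, and their part in its shares was not tested.

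**Figure D1:**
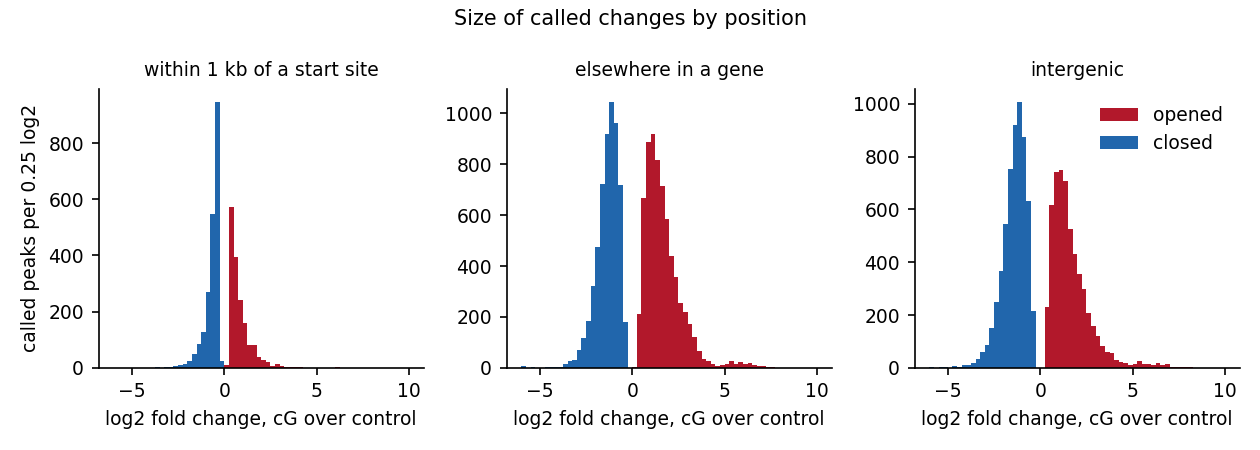
Number of opened (red) and closed (blue) peaks in bins of log2 fold change, cG over control, for peaks within 1 kb of a start site, elsewhere in a gene and between genes. Called start-site changes gather nearer 0 (medians 0.63 and -0.53), and those of the other classes reach further (medians 1.44 and -1.25 in gene bodies). The medians are over called peaks only.

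The 10 opened peaks of lowest p included peaks at Rsad2, Ccl5, Ifit2, Cxcl10 and Oasl1, and others in or near Mrpl39, Fpr2, Trio, Dtd1 and Tnfsf15. A peak of 6004 bp over Ccl5, which encodes a chemokine for T cells and monocytes, and over its neighbour Heatr9 (chr11:83521831-83527834) stood at 64.3 and 83.5 CPM in cG and 5.13 and 4.44 in control. The cG libraries were far above both controls, with a log2 fold change of 3.95 ± 0.146 (SE) and an adjusted p of 2.04e-59. A peak of 14716 bp over the body of Rsad2, the antiviral enzyme viperin (chr12:26438731-26453446), stood at 145.5 and 180.0 CPM in cG and 25.6 and 28.0 in control. It changed by 2.60 ± 0.0999, with the lowest adjusted p of all peaks, 7.86e-62. Over the body of Ifit2, a sensor of viral RNA (chr19:34572687-34579247), cG gave 51.4 and 50.6 CPM and control 8.85 and 5.02, a change of 2.90 ± 0.149. The groups did not overlap at any of these peaks, as at 99.5% of all opened peaks and 46.4% of peaks not called. The start-site peaks of Rsad2 (0.82) and Ifit2 (0.28, adjusted p = 0.331) changed less than the peaks over their bodies.

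**Figure D2:**
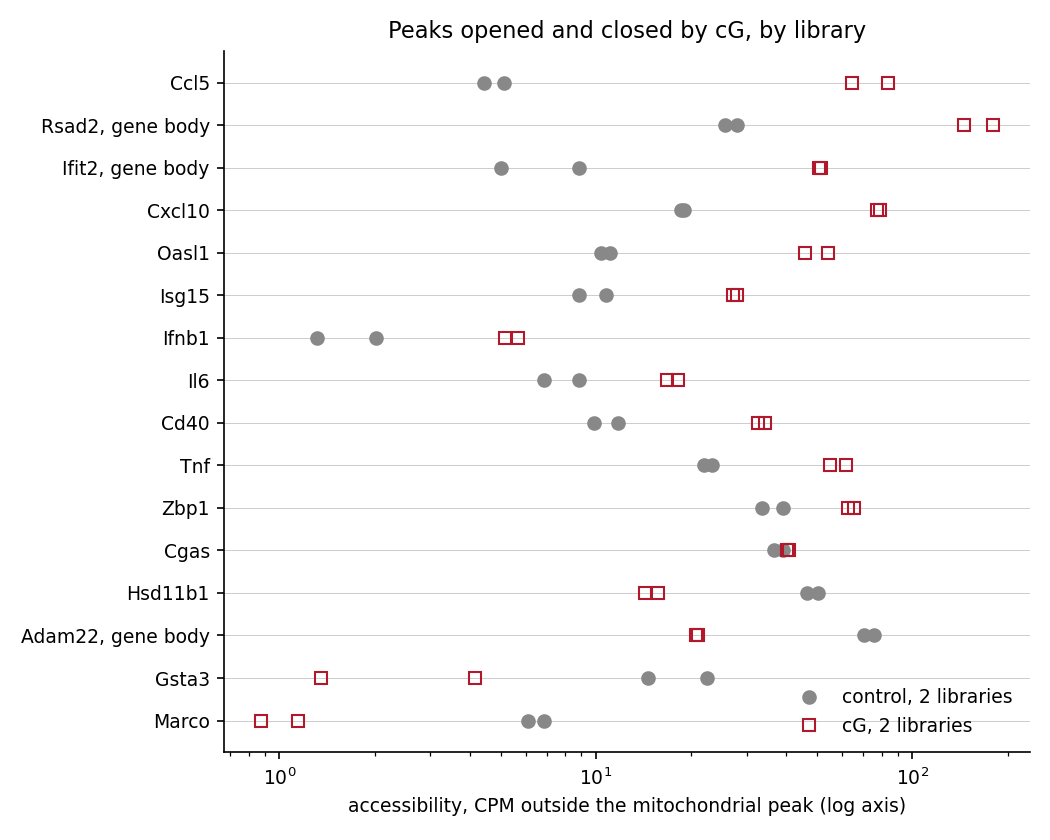
Accessibility in CPM (log axis) of the 2 control libraries (grey circles) and the 2 cG libraries (open red squares) at 16 peaks, by gene. The cG libraries lie above control from Ccl5 down to Zbp1, close to control at Cgas (40.9 and 40.3 against 36.5 and 39.2) and below it from Hsd11b1 to Marco.

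Of 14 genes that sense DNA and carry the STING signal 4 opened and 1 closed at their own peaks, with a median of 0.15 against 0.01 for all start-site peaks. The median of the 10 housekeeping genes was 0.16. Of all start-site peaks 10.5% opened and 13.3% closed, and the counts of the lists below stand beside these shares too. By total counts 9 of the 14 opened and none closed. The peak of Cgas stood at 40.9 and 40.3 CPM in cG and 36.5 and 39.2 in control (0.10 ± 0.114, adjusted p = 0.578). Sting1 (0.14, adjusted p = 0.798) and Irf3 (0.09, adjusted p = 0.734) did not pass the test either. By total counts Cgas (0.44) and Irf3 (0.42) were among those called. The kinase gene Tbk1 opened from 58.9 and 64.2 CPM in control to 87.7 and 93.0 in cG (0.55 ± 0.0934, adjusted p = 5.66e-07). Trex1, the nuclease that degrades cytosolic DNA, opened by 0.65 and Samhd1, which removes deoxynucleotides, by 0.71. Zbp1, a sensor of Z-form nucleic acid, opened by 0.82. These 4 genes kept their call when any 1 library was left out. Slc19a1, a carrier that takes up cyclic dinucleotides, closed by -0.46 (adjusted p = 0.0198). Its call was lost by total counts (-0.12) and without cG replicate 2 (-0.27), control replicate 1 (-0.41) or control replicate 2 (-0.49).

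Of 9 peaks of type I interferon and receptor genes 3 opened and none closed, and 2 of the 3 kept the call with each library left out. The Ifnb1 peak stood at 5.17 and 5.66 CPM in cG and 1.31 and 2.03 in control (1.68 ± 0.346, adjusted p = 4.85e-05). Ifna2 stood at 2.62 and 3.08 CPM against 0.328 and 0.386 (2.96 ± 0.569, adjusted p = 1.2e-05). Ifna4 opened by 1.88 but was not called without cG replicate 1 (1.53) or control replicate 1 (1.56). Ifna1 (1.23, adjusted p = 0.151) and Ifna5 (0.40, adjusted p = 0.645) did not pass. Interferon alpha genes are near-identical copies and how reads with several matches were counted is not given in the sources used here, so the division among them is uncertain. None of the receptor and kinase genes Ifnar1, Ifnar2, Jak1 and Tyk2 passed the test, with changes from -0.04 to 0.15. By total counts 7 of the 9 were called higher.

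Factors downstream of interferon opened by modest amounts. Of 12 IRF and STAT genes 8 opened and none closed (median 0.41). Irf7, which amplifies interferon production, rose from 19.1 and 18.04 CPM to 39.6 and 39.3 (1.09 ± 0.127, adjusted p = 5.7e-13). Irf1 opened by 0.62, Stat2 by 0.60 and Irf5 by 0.54, and these 4 kept the call with any library left out. The number opened ranged from 4 without cG replicate 2 to 7 without control replicate 1. Irf9 (0.23, adjusted p = 0.182) and Stat3 (0.16, adjusted p = 0.233) did not pass.

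Of 30 peaks of antiviral effectors 26 opened and none closed, with a median of 0.66, and 16 of the 26 were called with each library left out in turn (20 to 25 in any one case). Oasl1, an antiviral protein related to the 2'-5' oligoadenylate synthetases, rose from 10.4 and 11.1 CPM to 45.7 and 54.1 (2.21 ± 0.129, adjusted p = 2.99e-37). Isg15, whose promoter with 3 IRF repeats is printed above, rose from 8.85 and 10.8 CPM to 27.1 and 27.9 (1.48 ± 0.148). Control and cG libraries did not overlap at either gene, as at nearly all opened peaks. Ifi44 opened by 1.71 and Oas3 by 1.16. Parp14, a mono-ADP-ribosyltransferase, opened by 1.14 and Ifit1 by 1.07. Isg20, a nuclease, opened by 1.02 and Dhx58, which encodes the RNA sensor LGP2, by 1.01. Ifit2, Eif2ak2, Rtp4 and Trim30a were not called at their start sites. Trim30a changed by -0.00 and would be called higher by total counts (0.34). Mx1 and Mx2 had no tested peak within reach. When every tested peak within 5 kb of these genes was taken, 118 of 272 opened and 2 closed, with a median of 1.01.

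The interferon-inducible GTPases, which act on membranes of vacuoles that hold pathogens, opened as well. Of 12 peaks 10 opened and none closed (median 0.69), and 45 of the 88 peaks of their loci opened. Gbp5 rose from 11.5 and 12.7 CPM to 26.0 and 39.1 (1.43 ± 0.152). Irgm1 opened by 0.82 and Gbp2 by 0.61. Iigp1 went from 0.437 and 0.386 CPM to 2.71 and 3.58 (2.91 ± 0.537). Another peak nearest to Iigp1 held 7.56 and 7.59 CPM in cG and 0.218 and 0 in control, a ratio of 74.0 with a counting interval of 20.2 to 614.9 (95%, exact). The number of opened peaks fell to 6 without control replicate 1 and was 7 to 10 without another library. Gbp7 and Ifi47 were not called. Several of these genes have close paralogs, and the same limit on reads with several matches applies.

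Chemokine genes opened in part. Of 9 peaks 5 opened and none closed (median 0.57). Cxcl10, a ligand of CXCR3, rose from 18.6 and 19 CPM to 77.6 and 79.0 (2.06 ± 0.114, adjusted p = 7.67e-40), and its call held with any library left out. Ccl12 opened by 1.06. Ccl22 (0.73) and the shared peak of Ccl3 and Ccl4 (0.37) lost their calls when libraries were left out: Ccl22 stood at 0.65 without control replicate 1, 0.73 without either cG replicate and 0.84 without control replicate 2, and Ccl3 at 0.30 without cG replicate 2 and 0.19 without control replicate 2. The list fell to 3 opened without cG replicate 2 and without control replicate 2. A separate peak nearest to Ccl4 stood at 17.3 and 21.8 CPM in cG and 2.29 and 2.60 in control (2.99 ± 0.218). Ccl2, a monocyte attractant, had values of 10.5 and 12.5 CPM against 15.0 and 14.3 and did not pass (-0.34, adjusted p = 0.18). Cxcl9 did not pass (0.25, adjusted p = 0.757).

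Inflammatory and NF-kappaB genes opened too. Of 25 peaks 17 opened and none closed (median 0.39), and 11 of the 17 kept the call with every library left out. Tnf rose from 23.3 and 22.0 CPM to 55.0 and 61.6 (1.37 ± 0.11, adjusted p = 2.46e-23). Il6 rose from 6.88 and 8.87 to 16.8 and 18.2 CPM (1.14 ± 0.166). Il27 opened by 2.08, Nos2, the inducible nitric oxide synthase, by 1.85 and Il23a by 1.22. Acod1 opened by 1.12 and Nfkbie, an NF-kappaB inhibitor, by 0.96. Il1b (0.49, adjusted p = 0.271), Il1a (0.33, adjusted p = 0.595) and Il12b (-0.76, adjusted p = 0.0774) did not pass.

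Feedback regulators opened. Of 11 peaks 8 opened and 1, Usp25, closed (median 0.56). Socs1, a suppressor of interferon receptor signalling, rose from 46.4 and 51.7 CPM to 103.0 and 102.2 (1.06 ± 0.095, adjusted p = 4.73e-20). Socs3 opened by 1.13 and Cish by 0.94. Dusp2 (0.74) and Dusp1 (0.56), phosphatases of MAP kinases, opened as well. These 5 kept the call with any library left out, and no other gene of the list was called higher without control replicate 1. The call of Usp25 (-0.34), a deubiquitinase, was lost without cG replicate 1 (-0.30) or control replicate 2 (-0.32) and by total counts (-0.00).

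Among genes of antigen presentation, of 11 class I and peptide loading peaks 10 opened and none closed (median 0.76). H2-K1, a class I heavy chain, rose from 23.1 and 20.9 CPM to 45.1 and 42.6 (1.00 ± 0.117). Tapbp, which encodes tapasin, opened by 1.03, Nlrc5, the class I transactivator, by 0.89 and the peak shared by Tap1 and Psmb9 by 0.76. Of 8 class II peaks 2 opened (H2-Oa, 1.15, and H2-DMa, 0.40) and 1, Ciita, closed (median 0.09), and by total counts 4 opened and none closed. These class II counts are few beside the 10.5% opened and 13.3% closed of all start-site peaks. The difference between the class I and class II genes was not tested. Ciita, the class II transactivator, stood at 1.27 and 1.86 CPM in cG and 3.28 and 4.34 in control (-1.27, adjusted p = 0.0297). Its call was lost by total counts (-0.94) and without any 1 of the 4 libraries (-1.03 to -1.58). Among 13 costimulation and migration genes 6 opened and none closed (median 0.48), and by total counts 12 opened. Cd40 rose from 9.83 and 11.8 CPM to 34.1 and 32.5 (1.62 ± 0.139, adjusted p = 2.11e-21) and Cd274, which encodes PD-L1, opened by 1.06. Fscn1, which bundles actin in migrating dendritic cells, opened by 1.06 and Il15 by 0.75. Cd80 (0.27), Cd86 (0.48) and Ccr7 (0.12) did not pass, with adjusted p from 0.156 to 0.732, but were called by total counts (0.61, 0.82 and 0.46).

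**Figure D3:**
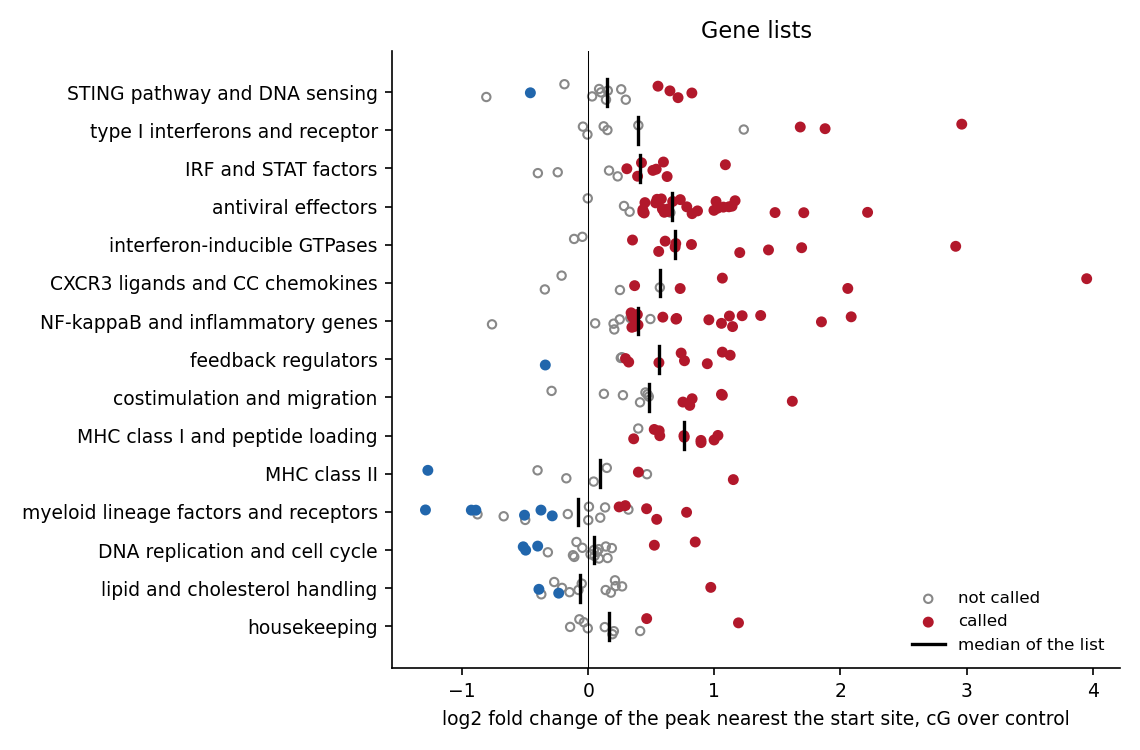
Log2 fold change, cG over control, of the peak nearest the start site for each gene, by list, with called peaks filled (red higher, blue lower), others as open grey circles and the list's median as a black bar. Medians lie above 0.5 for antiviral effectors, GTPases, chemokines, feedback regulators and MHC class I. They lie between -0.08 and 0.16 for STING and DNA sensing, MHC class II, lineage, replication, lipid and housekeeping genes.

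For lists outside the interferon and inflammatory programme, the counts stand beside the 10.5% opened and 13.3% closed of all start-site peaks. Of 20 myeloid lineage genes 5 opened and 6 closed (median -0.08). Over all 237 tested peaks of these loci 28 opened and 14 closed, and the median turned to 0.19. Of all tested peaks 11.6% were called in each direction. Zeb2, a transcription factor of myeloid and dendritic cells, rose from 24.0 and 26.5 CPM to 48.7 and 38.3 (0.78 ± 0.118, adjusted p = 1.98e-08). It was the only opened gene of the list that held with each library left out. By total counts the list had 7 opened and none closed. With 1 library left out it had 1 to 3 opened and 1 to 4 closed. Of 19 replication and cell cycle genes 2 opened and 3 closed, close to the shares of all start-site peaks. Ccna2, which encodes cyclin A2, was the only closed one to hold with each library left out (-0.52, and -0.17 by total counts, not called). By total counts that list had 10 opened and none closed. Of 14 lipid genes 1 opened and 2 closed, close to those shares as well. None of these 3 calls held with each library left out, and by total counts 5 opened and none closed. Of 10 housekeeping genes Actb (1.19) and Polr2a (0.46) opened, and Polr2a was not called without control replicate 1 (0.37). By total counts 6 of the 10 were called higher.

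Markers of other cells were low or mixed, apart from those of macrophages, which were not low. The few calls of all these markers stand beside the 11.6% of all tested peaks called in each direction. Of 6 neutrophil markers S100a8 closed, from 20.5 and 17.2 CPM to 9.47 and 12.0 (-0.81), and the summed level was 26.3 and 30.4 CPM in cG against 44.9 and 35.4 in control. Ly6g, Ltf, Elane and Mpo stood at or below 2.12 CPM in all 4 libraries. Of 6 macrophage markers Adgre1 (0.50) and Csf1r (0.54) opened and 1 closed. The summed level of the 6 was 147.3 and 155.8 CPM in cG and 174.3 and 162.0 in control. That of the 8 dendritic markers, given above, was 174.1 and 172.0 in cG and 158.1 and 165.3 in control. Adgre1 was not called without cG replicate 1 (0.45) or control replicate 1 (0.36), nor Csf1r without cG replicate 2 (0.33) or control replicate 2 (0.45). Of the 5 T cell markers with a peak, Lck opened (0.96), and Cd3e stood at or below 0.328 CPM. Of 5 B cell markers 2 opened, both at no more than 5.09 CPM and neither called without cG replicate 2. Among them Ms4a1, which encodes CD20, changed by 1.52, and by 1.11 without that library. NK, mast cell and erythroid markers had no call, and of 4 plasmacytoid markers Ccr9 opened (1.34), though not without cG replicate 2 (1.12) or control replicate 2 (1.01). The part of other cells in the results was not tested.

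Peaks that closed most clearly lay largely outside the lists. A peak in Adam22, which encodes a membrane protein of the ADAM family (chr5:8356961-8358043), fell from 75.9 and 70.5 CPM to 20.7 and 21.0 (-1.81 ± 0.128, adjusted p = 1.58e-28), the lowest adjusted p among closed peaks. Hsd11b1 encodes the enzyme that regenerates active glucocorticoid. Its start-site peak (chr1:193241954-193243350) fell from 50.4 and 46.6 CPM to 15.7 and 14.3 (-1.69 ± 0.134, adjusted p = 4.63e-24). The groups were apart at both, as at 99.5% of all closed peaks. Gsta3, a glutathione transferase, fell from 22.4 and 14.7 CPM to 1.35 and 4.16 (-2.72). Marco, a scavenger receptor, fell from 6.12 and 6.85 CPM to 0.875 and 1.15 (-2.66). Peaks in Gpc6 (-1.82) and near Npr3 (-2.06) and Intu (-2.95) were also among the 10 closed peaks of lowest p.

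Some peaks were seen in cG and not in control. A peak in Kalrn (chr16:34198492-34199079) held 98 and 118 counts in the cG libraries (7.80 and 8.45 CPM) and 0 in both control libraries. Against a floor of 3 counts over the control group it was at least 53.0-fold higher. Peaks near Cnot4 (chr6:35144181-35144714), Nrn1 (chr13:36716706-36717116) and Kcnk10 (chr12:98587606-98588040) were at least 23.1-fold, 18.9-fold and 17.7-fold higher by the same floor. In the other direction a peak in Dab1 (chr4:103722830-103723102) held no count in cG and 0.983 and 3.28 CPM in control, at least 19.5-fold lower. A peak in Magi2 (chr5:20227964-20228211) held 2.40 and 2.12 CPM in control and 0.0795 and 0 in cG, a ratio of 59.8 with a counting interval of 10.2 to 2415. Among opened peaks at start sites, Cd69, an early activation marker, rose from 0.546 and 1.25 CPM to 8.67 and 7.02 (3.08), and Orm1, an acute phase protein, from 0 and 0.772 to 4.06 and 3.87 (3.25).

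At some loci many opened peaks lay close together. A stretch was a run of called peaks of 1 direction with gaps of at most 20 kb, and its median is over those called peaks. Stretches with the most called peaks were picked, and whether peak spacing alone would give such runs was not tested. The longest by number covered Slc26a11, Rnf213 and Endov on chromosome 11 (114.9 kb), where 46 of 82 tested peaks opened and none closed (median 2.48). Rnf213 encodes an interferon-inducible ubiquitin ligase that acts on bacteria and lipid droplets. Its start-site peak rose from 32.9 and 30.3 CPM to 67.0 and 74.5, a smaller change of 1.17 than most peaks along its body. The stretch over Rsad2 and Cmpk2 held 17 opened of 20 peaks in 47.7 kb (median 2.60), and that over Oasl2 and Oasl1 17 of 23 in 43.8 kb (median 2.45). Over Il10 and Mapkapk2 24 of 61 peaks opened in 129.4 kb (median 1.92), while the start-site peak of Il10, an anti-inflammatory cytokine, stood at 0.636 and 0.788 CPM in cG and 0.765 and 0.482 in control. Around Tnfaip3, which encodes the NF-kappaB inhibitor A20, 19 of 40 opened and 1 closed. Manbal with Src (17 of 26), Ifih1, which encodes the RNA sensor MDA5 (16 of 38), and Ptafr with Eya3 (16 of 27) completed the 8 with the most opened peaks.

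**Figure D4:**
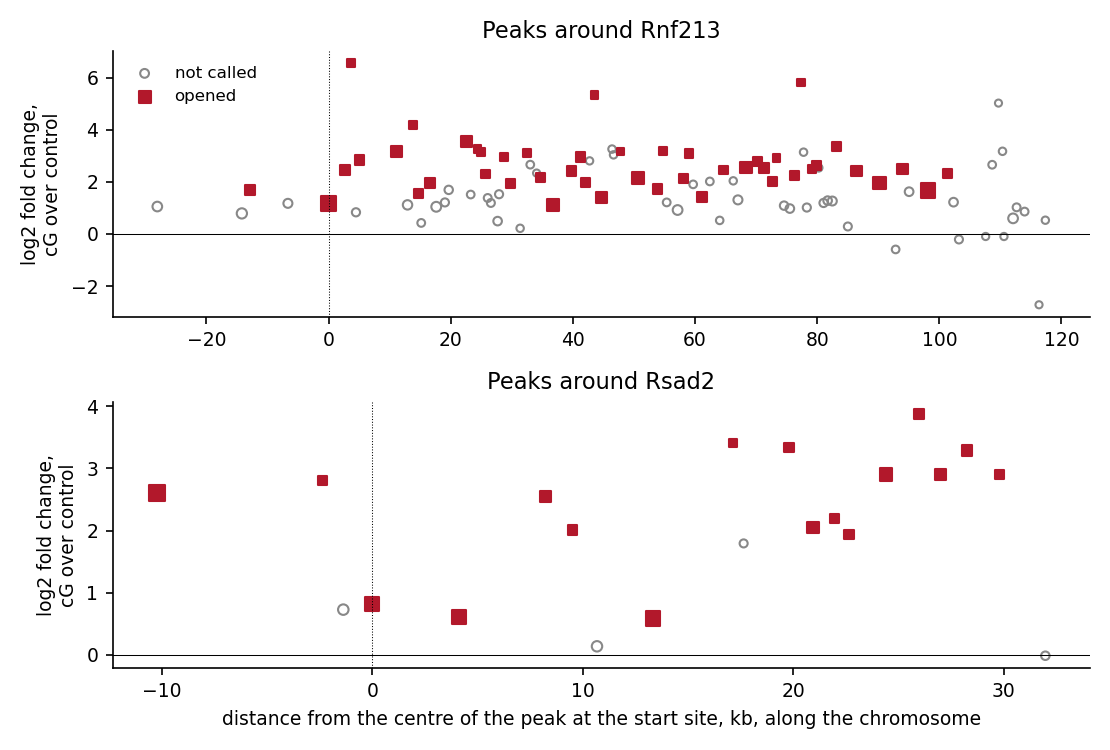
Log2 fold change, cG over control, of tested peaks around Rnf213 and Rsad2 against distance in kb from the start-site peak, with opened peaks as red squares, peaks not called as open grey circles and marker size growing with mean CPM. The start-site peaks (1.17 and 0.82) lie below most opened peaks of their stretches, whose medians are 2.48 and 2.60. These medians are over called peaks only.

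There were 1306 opened and 995 closed stretches of at least 3 peaks. The 5 closed ones with the most called peaks held 10 to 14, against 16 to 46 in the 8 opened ones. The largest closed one, at Taar8, Taar9 and Stx7 on chromosome 10, had 14 closed of 28 peaks in 115.0 kb (median -1.22). Mroh2a with Hjurp had 11 of 25 (median -0.76) and Xpo7 with Dok2 11 of 19 (median -0.73). The interferon zeta cluster on chromosome 4 had 10 closed of 16 (median -0.43), and its genes are near-identical copies, so these counts may repeat the same reads. Sfi1 had 10 of 26 (median -0.61).

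The IRF repeat was found in a larger share of opened than of other promoters, as a description. It was found in 11% of 1380 promoters covered by an opened peak and in 16.9% of the 177 that opened over 2-fold. It was found in 6.40% of 1829 closed promoters, 6.74% of 8847 not called and 8.13% of all 21238 promoters of the table. Seen from the other side, 152 of the 865 covered promoters with the repeat (17.6%) opened and 13.5% closed, against 11% and 15.3% of the 11191 without it. The longer kappaB form GGANTTTCC was in 2.75% of opened, 6.78% of those over 2-fold, 1.15% of closed and 1.29% of all promoters. The shorter form GGGANTTCC was in 3.33% of opened and 2.79% of closed promoters, against 1.84% of all. It was in 2.82% of promoters opened over 2-fold and 0.633% of those closed over 2-fold. The AP-1 letters TGANTCA were in 6.74% of opened, 4.16% of closed, 4.84% of not called and 6.99% of all promoters. They were in 13.6% of promoters opened over 2-fold and 5.7% of those closed over 2-fold. The GAS letters TTCNNNGAA were in 7.61% of opened, 6.67% of closed and 7.69% of all promoters. In promoters opened and closed over 2-fold the GAS shares were 11.9% and 5.06%. AGGAAGT, bound by PU.1, the master factor of myeloid cells, was found more often in closed promoters. It was in 8.48% of opened, 12.0% of closed and 20.9% of the 158 promoters closed over 2-fold. Among promoters opened over 2-fold it was in 10.2%, against 9.17% of those not called and 9.07% of all. Base composition moved with these shares: the median GC content was 54.0% in promoters opened over 2-fold, 53.3% in those closed over 2-fold and 61.7% in those not called. In the latter 158 closed promoters, close in composition to the 177 opened ones, the IRF repeat was in 12.0%. No test was made, and a match describes letters, not binding.

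Part of the change made by cG was seen again when cG was added to zymosan or PAM. These comparisons share no library with cG against control. ZcG against Z called 4928 peaks higher (4.13% of tested peaks) and 5914 lower (4.95%; 9.08% in all), and PcG against P called 8803 (7.37%) and 8821 (7.38%; 14.8% in all). By total counts PcG against P called 10997 higher and 5910 lower. Of the 13916 opened peaks 2950 (21.2%) were called higher in ZcG against Z and 86 lower, and 4849 (34.8%) higher and 217 lower in PcG against P. Of the 13886 closed peaks 3495 (25.2%) were lower in ZcG against Z and 16 higher, and 4316 (31.1%) lower and 47 higher in PcG against P. In all 3 comparisons 2006 peaks opened (14.4% of the opened) and 2107 closed (15.2% of the closed). Across the 119464 peaks log2 fold changes correlated with those of cG against control at 0.428 for Z and 0.497 for P, as a description over peaks that share depth and width. The mitochondrial share was close in ZcG and Z but lower in PcG than in P, as given above. Leaving out any 1 library lowered the total called to 5302 to 6928 for ZcG against Z and to 9860 to 10872 for PcG against P.

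Of the peaks of lowest p some changed alike on all backgrounds and others did not. Ccl5 stood at 4.86 and 7.03 CPM in Z and 51.4 and 54.2 in ZcG, and at 11.4 and 13.5 in P and 82.2 and 92.4 in PcG. Its change was 3.13 on Z and 2.81 on P. A peak in Dtd1, which encodes a tRNA deacylase (chr2:144714321-144715098), rose from 2.84 and 3.09 CPM in control to 31.3 and 30.2 in cG (3.37), by 3.12 on Z and by 2.63 on P. Hsd11b1 fell by 1.02 on Z and 1.30 on P. The peak near Mrpl39 did not pass on P, as given below. Of the antiviral effectors 7 of 30 peaks were called higher on Z and 22 on P, and of the class I peaks 3 and 6 of 11. Of the closed peaks at start sites 12.5% were called lower on Z, with a median of -0.15, and of those between genes 28.3%.

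**Figure D5:**
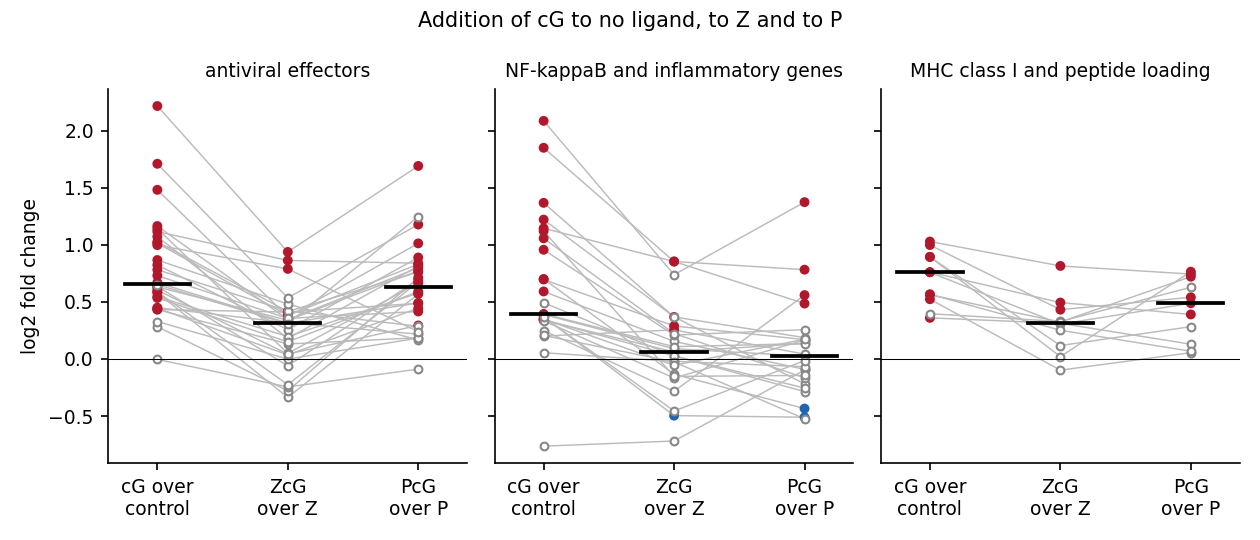
Log2 fold change of each list peak (grey lines join a peak) for cG over control, ZcG over Z and PcG over P, in 3 gene lists, with red for called higher, blue for called lower, open circles for not called and black bars for medians. Antiviral medians are 0.66, 0.31 and 0.63, inflammatory medians 0.39, 0.06 and 0.02.

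The effect of cG on Z and on P was set against its effect on control. The test of the difference between the effect on Z and that on control called 2980 peaks (2.49%), 900 with a higher log2 value on Z (0.753%) and 2080 with a lower one (1.74%), and that for P called 3907 (3.27%), 1301 higher (1.09%) and 2606 lower (2.18%). A higher value is not a larger effect: 760 of the 900 and 1015 of the 1301 lay at peaks that cG alone closed, and 1797 of the 2080 and 2119 of the 2606 at peaks that it opened. These tests use the cG and control libraries again, so these counts are a description. The numbers depend on the scaling: by total counts 8645 peaks were called for Z, 293 higher and 8352 lower, and 6632 for P, 622 higher and 6010 lower. Among the 217 distinct peaks of the lists 39 (18%) were called for Z, 35 with a lower value, and 23 (10.6%) for P, all lower. Cxcl2, a neutrophil attractant, showed the clearest turn. It rose with cG alone from 42.9 and 43.1 CPM to 53.8 and 57.2 (0.37), fell on Z from 82.9 and 76.9 to 55.1 and 58.0 (-0.50) and fell on P from 85.9 and 86.2 to 61.7 and 59.1 (-0.51). Each of these 3 changes was called, and so was each difference, although the rise with cG alone was 0.32 and not called without cG replicate 2. Acod1 was at 33.3 and 30.8 CPM in Z and 30.0 and 27.6 in ZcG, already above the 15.0 and 14.2 of control. Tnf stood at 46.0 and 47.9 CPM in Z against 23.3 and 22.0 in control, and at 57.2 and 64.1 in ZcG. A peak near Mrpl39 (chr16:84602917-84604541) was at 7.10 and 7.23 CPM in control and 41.0 and 43.6 in cG (2.56), but at 41.2 and 38.4 in P and 42.1 and 43.5 in PcG (0.11, adjusted p = 0.566). At this peak P alone stood at the level of cG. Without cG replicate 2 the counts of differing peaks fell to 1529 for Z and 2156 for P. Without control replicate 1 they were 1653 and 2523.

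Few peaks differed between cG and Sendai virus, and more between cG and LPS. cG against S called 263 peaks higher (0.22% of tested peaks) and 870 lower (0.728%), 0.948% in all. cG against L called 3945 higher (3.3%) and 4678 lower (3.92%), 7.22% in all, and by total counts 2409 higher and 5734 lower. The mitochondrial share lay between 44.1% and 48.7% in all 6 libraries of these comparisons. Of the 217 list peaks 1 was called against S: Ifna5, at 1.91 and 0.86 CPM in cG and 3.99 and 4.92 in S (-1.70, adjusted p = 0.0213). Ifnb1 stood at 5.17 and 5.66 CPM in cG and 9.62 and 10.4 in S (-0.88, adjusted p = 0.0812). Against L 17 list peaks were higher and 5 lower. Ifnb1 stood at 1.48 and 3.02 CPM in L, lower than in cG (1.23, adjusted p = 0.00284), and so did Ifna2 (1.70). Ccl5 was at 49.6 and 39.0 CPM in L (0.74, adjusted p = 1.24e-08) and Cxcl10 at 60.3 and 58.2 (0.40). Il6 (-0.48), Il12b (-1.17), Socs3 (-0.55) and Ebi3 (-0.47) were lower in cG than in L. The Dtd1 peak was at 29.9 and 25.6 CPM in S and 4.88 and 4.85 in L. A count of few called peaks does not show that cG and S act alike, and with any 1 library left out it was 362 to 438 for S and 3962 to 5269 for L.

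A few peaks of very high counts fell in cG, where the mitochondrial share was lower. The 17 peaks with a mean over 1000 CPM held 21.9% and 21.6% of counts outside the mitochondrial peak in cG and 36.5% and 34.7% in control. Of these 9 closed and 2 opened, with a median of -0.56. The highest, near Col19a1 (chr1:24611386-24616337), stood at 127407 and 141353 CPM in cG and 330417 and 289764 in control (-1.21). On Z, where the mitochondrial share was close with and without cG, the median of the 17 was 0.09. On P, where the share was lower with cG, it was 0.03, but the 9 closed peaks were divided there. Those near Col19a1 (-0.36), Eea1 (-0.35), Gad2 (-0.31), G6pd2 (-0.27), Galc (-0.20) and Nxph1 (-0.16) were lower with cG on P. Those near Chl1 (0.09), Lrrc4c (0.13) and Esp38 (0.14) were not. On Z the 9 changed by 0.08 to 0.40. A link of these peaks to the mitochondrial share was not tested. Leaving these peaks out changed the number of called peaks from 27802 to 27756.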

How the data were processed

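ATAC-seq counts of 36 libraries were used, with groups and replicate numbers taken from the sample titles and 0 count columns left unused. The deposited table holds raw counts of reads per peak, made by the authors. Bowtie2 2.2.9, MACS2 1.4, bedtools, featureCounts and the build mm10 are named in the submitters' processing notes, without their roles. Whether read ends were adjusted for the transposase, how duplicates were treated and whether peaks were called on pooled libraries is not given in the sources used here. The peak positions are as deposited.

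The mitochondrial peak was left out. Low peaks were removed (filterByExpr, minimum count 10), which left 119464 of 119750. After TMM scaling, counts entered 1 fit in edgeR 4.0.16 (R 4.3.3; quasi-likelihood test, robust) with 1 coefficient for each of 18 groups and 18 residual degrees of freedom. Benjamini-Hochberg adjustment ran over all tested peaks within each of 7 contrasts, with 0.05 as the threshold. An exact permutation test of 2 against 2 cannot go below p = 0.333 (two-sided), so the shared fit was used. Fold changes are log2, with SE. The test was tested on simulated data, where it recovered losses less often than gains of the same fold. Reads carry no molecular identifiers, so intervals and floors cover counting error only.

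Peaks were placed by start sites of 21900 protein-coding genes in RefSeq's table for GRCm38.p6, the same coordinates as mm10. For 4408 of them, without a strand, both gene ends were used. A list gene was represented by its tested peak nearest a start site within 1 kb, or otherwise within 5 kb of the gene, and 254 of 265 list genes had one. Other named peaks were the 12 most changed in each direction (mean of at least 1 CPM, groups apart), the same at start sites, the 10 of lowest p in each direction and the stretches with the most called peaks, 8 opened and 5 closed. A few others were named after their values were seen: peaks over 1000 CPM and a Rnf213 start-site peak. The comparison, its members and the lists were chosen with earlier results of these data known. Alternatives covered scaling, filters, depth, the replicate block, DESeq2 1.42.0 and each library left out. A few items are not reported here.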

Additional observations from a re-analysis of the deposited data

Results flagged for a closer look

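The effect of cG differed between backgrounds by the test of the difference itself (edgeR's quasi-likelihood test, adjusted over all peaks) at 2980 peaks for zymosan against no other ligand and at 3907 peaks for PAM. These tests share the cG and control libraries with the effect of cG alone. For genes of the lists chosen for this check, the effect on zymosan less that on control is given in log2 units. It was -0.865 at Cxcl2, -1.27 at Acod1, -0.999 at Tnf, -0.834 at Clec4e and -0.851 at Il23a. At Cxcl2 the effect turned direction, as given above, so the lower value there is not a smaller effect. The difference was -0.933 at Socs1, -1.05 at Socs3, -1.05 at Cxcl10 and -0.826 at Ccl5. Interferon-stimulated genes followed with -0.752 at Zbp1, -1.11 at Isg15, -1.28 at Oasl1 and -0.777 at Irf7.

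For PAM the same difference was -0.878 at Cxcl2 (where the effect again turned direction), -1.26 at Acod1, -1.18 at Tnf, -1.14 at Clec4e and -1.44 at Il23a. It was -0.765 at Socs1, -0.914 at Socs3, -0.815 at Cxcl10, -1.15 at Ccl5 and -0.637 at Irf7. At Clec4e, a receptor for mycobacterial glycolipid, cG alone gave 0.70, and the change was -0.13 on zymosan and -0.43 on PAM, the latter called lower. At Il23a the values were 1.22, 0.37 and -0.22. Groups held 2 libraries each, too few to look for a single library far from the rest of its group.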

How the results depend on the processing

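For cG against control the number of called peaks (27802) was 25015 to 28009 under DESeq2 size factors, the DESeq2 Wald test, offsets that depend on abundance, other filters, the mitochondrial peak kept, only the compared groups, and, chosen after seeing the data, peaks over 1000 CPM left out, with or without total counts. Total counts gave 33762 (27382 opened, 6380 closed, median 0.34) and thinning to one depth 19894. The replicate block gave 27644, 10807 for cG on Z and 17491 on P, and moved no count by over 1.5 times. Replicate numbers did not pair the samples (correlation of deviations -0.012 for cG and control), and the block changed no named peak's call. Leave-one-out totals were 17405 to 21205 for cG against control (lowest without control replicate 1), 5302 to 6928 for cG on Z, 9860 to 10872 on P, 1529 to 2593 and 2156 to 3409 for the differences on Z and P, 362 to 438 against S and 3962 to 5269 against L. The differences fell by over 1.5 times without cG replicate 2, control replicate 1, Z replicate 1 or ZcG replicate 1, and without cG replicate 2, control replicate 1, P replicate 2 or PcG replicate 1. Omitting any 1 library did so for cG on Z, cG on P, against S and against L. Thinning, which leaves fewer counts, gave 6530, 10647, 1430, 2081, 429 and 4818 in the same order. Total counts gave 8645 and 6632 for the differences, and only the compared groups gave 1609 on Z. Closed start-site peaks were 14.79% within 500 bases. With all tested peaks of the loci, medians were 0.21 (STING and DNA sensing), 0.23 (IRF and STAT), 1.01 (antiviral), 1.04 (GTPases), 0.47 (feedback), 0.54 (costimulation), 0.19 (lineage), 0.33 (lipid), 0.24 (dendritic markers), 0.23 (T cell markers) and -0.14 (plasmacytoid markers). By total counts Cebpa (0.0567), Insig1 (0.11), Jak1 (0.30) and Trim30a (0.34) turned sign. Beyond these constructions the cause was not tested. Of 209 named peaks that were called, 143 were called with every library left out in turn. Motifs in whole peaks were not run.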

Other observations

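Further peaks of lowest p that opened lay near genes outside the lists. A peak near Fpr2, a formyl peptide receptor of phagocytes (chr17:17917243-17918298), stood at 21.7 and 20.6 CPM in cG and 2.19 and 0.772 in control (3.87 ± 0.228). It stood at 4.07 and 4.51 CPM in Z and 27.0 and 25.9 in ZcG. A peak in Trio, which encodes an exchange factor for small GTPases (chr15:27867375-27868781), rose from 7.43 and 4.24 CPM to 36.9 and 32.1 (2.58 ± 0.154). A peak over Tnfsf15, a cytokine of the TNF superfamily (chr4:63722585-63728894), rose from 8.52 and 9.84 CPM to 41.5 and 54.2 (2.38 ± 0.144). At each of these 3 peaks both cG libraries lay above both controls, as at 99.5% of all opened peaks.

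Of the closed peaks of lowest p outside genes, 1 near Tyrp1 (chr4:80310396-80311914) fell from 59.2 and 53.0 CPM to 14.8 and 13.97 (-1.96 ± 0.141). Another, near Cpb1 (chr3:20304355-20305380), fell from 68.3 and 56.7 CPM to 17.3 and 18.1 (-1.82 ± 0.137). It fell by 1.79 when cG was added to zymosan and by 1.65 when it was added to PAM.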
